A study of Mus musculus with 12 samples.

Results

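The genes described here encode 10 immune checkpoint ligands, surface or secreted proteins on tumor cells that engage receptors on T cells, natural killer cells and macrophages. They were taken by gene symbol from a table of raw RNA-seq counts, and all 10 were found among its 54232 genes: Cd274, Pdcd1lg2, Cd276, Cd80, Cd86, Lgals9, Pvr, Nectin2, Cd47 and Cd200. The RNA came from B16F10, a pigmented melanoma line of C57BL/6 mice, in 12 libraries that form 4 groups of 3. The WT group was cultured without treatment. The relapsed lines, named ITF1, Rel and ITM, were sorted from tumors that grew back in mice after immunotherapy and were kept in culture until RNA extraction. The Lyso group was parental B16F10 incubated for 48 h, by its label, with lysosomes released by T cells. The methods describe these as concentrated supernatant of CD8+ T cells activated through CD3 and CD28 with IL-2, and give a shorter incubation than the label. The Tumor group, libraries Tumor1, Tumor3 and Tumor4, was sorted from relapsed tumors and extracted at once. The immunotherapy combined antibodies to CD40 and TRP1 with TNFα, injected into the tumor, and the labels give an age of 6 weeks to all 12 libraries. All groups shared the parental line, no group carried an engineered allele, and the Tumor group had no untreated tumor beside it, so growth in the animal and relapse after immunotherapy cannot be told apart in it. Each relapsed line is a line of its own, and nothing in the labels says whether the WT or Lyso libraries came from separate cultures, so p-values for those groups measure only the spread between these libraries.

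Checkpoint ligands act as brakes or switches for immune cells. PD-L1, encoded by Cd274, and PD-L2, encoded by Pdcd1lg2, bind PD-1 on T cells and dampen signaling through the T cell receptor, and interferon-γ from activated T cells is the best known inducer of Cd274 in melanoma, acting through JAK kinases and IRF1. Other members reach other cells: CD47 binds SIRPα on macrophages as a "do not eat me" signal, PVR and nectin-2 share the receptors TIGIT and DNAM-1 on T and natural killer cells, galectin-9 binds TIM-3, and CD200 binds an inhibitory receptor on myeloid cells. CD80 and CD86, the classic ligands of CD28 and CTLA-4, belong to antigen-presenting cells, and the receptor of B7-H3, encoded by Cd276, is not settled.

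Promoter sequences from RefSeq (GRCm38.p6) were at hand for 8 of the 10 members, as windows of 250 bases before and 50 bases after the start site. Those of the PD-1 ligand pair and of Lgals9 are shown because Cd274 carried the largest change among the tested members, Pdcd1lg2 is its neighbor on the chromosome, and Lgals9 is the other member whose window holds the core of the interferon regulatory factor element. The Cd274 window is chr19:29367188-29367487 (plus strand), the Pdcd1lg2 window chr19:29410669-29410968 (plus strand) and the Lgals9 window chr11:78984875-78985174 (minus strand). Each is written 5′ to 3′ along the gene. Capitals mark matches to the interferon regulatory factor core GAAANNGAA and to the NF-κB element GGGNNTTCC, both searched on both strands.
Cd274: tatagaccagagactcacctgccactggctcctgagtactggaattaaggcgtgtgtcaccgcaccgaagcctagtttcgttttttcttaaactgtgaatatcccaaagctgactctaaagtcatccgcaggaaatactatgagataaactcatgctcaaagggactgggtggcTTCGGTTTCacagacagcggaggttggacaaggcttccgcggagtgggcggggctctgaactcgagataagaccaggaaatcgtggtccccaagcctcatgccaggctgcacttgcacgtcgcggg
Pdcd1lg2: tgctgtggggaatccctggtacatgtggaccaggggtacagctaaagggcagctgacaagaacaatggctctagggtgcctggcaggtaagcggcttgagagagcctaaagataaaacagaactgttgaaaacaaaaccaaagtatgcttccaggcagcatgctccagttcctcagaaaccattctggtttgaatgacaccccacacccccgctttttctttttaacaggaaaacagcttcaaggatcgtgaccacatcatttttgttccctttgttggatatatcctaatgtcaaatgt
Lgals9: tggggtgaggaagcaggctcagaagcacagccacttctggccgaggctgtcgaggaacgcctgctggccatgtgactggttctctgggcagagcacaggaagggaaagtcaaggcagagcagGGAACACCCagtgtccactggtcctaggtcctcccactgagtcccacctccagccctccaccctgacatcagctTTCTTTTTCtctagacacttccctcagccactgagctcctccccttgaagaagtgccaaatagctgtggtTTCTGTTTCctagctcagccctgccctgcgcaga
In Cd274 the capitals are an interferon regulatory factor core read on the reverse strand, TTCGGTTTC, at bases -76 to -68 from the start site, with base -1 the last before it. The Lgals9 window held such a core at -54 to -46, another within the transcribed part at 17 to 25, and a reverse-strand NF-κB match at -128 to -120. The Pdcd1lg2 window held none of the motifs searched. Of all 32851 promoter windows in the table, 8.56% held the interferon regulatory factor core and 5.82% the NF-κB element. The STAT element TTCNNNGAA, found in 8.3% of all windows, was in no window of a member. Elsewhere among the members, Nectin2 held an NF-κB match, GGGTCTTCC, at -152 to -144, Cd80 an AP-1 match, TGATTCA, at -42 to -36 (TGANTCA, 7.81% of windows) and Cd200 an EGR match, GCGGGGGCG, at -38 to -30 (2.91% of windows). The other EGR form searched, GCGTGGGCG, was in 0.612% of all windows and in none of a member, and the windows of Cd276 and Cd47 held no match.

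The libraries differed in depth and in the state of the WT group, and both bear on the members. Reads counted to genes numbered 1667398 in WT1 and 2350129 in WT2 but 16384021 in WT3, 12749399 to 16402629 in the relapsed lines, 10895611 to 12675277 in Lyso and 3102442 to 5049496 in Tumor. Levels below are CPM, the counts of a gene scaled to a TMM-adjusted library of 1000000 counts. A count of 0 in WT1 allows up to 1.70 CPM and in WT2 up to 1.27 CPM (3 counts), against 0.177 CPM in WT3, limits that cover counting error only. WT3 also stood apart in genes of the interferon response, named here after their values were seen: Irf9 was 7.92, 4.64 and 56.0 CPM in WT1, WT2 and WT3, and Gbp2 was 5.66, 6.33 and 57.6 CPM. Results that turn on WT3 are given with and without it. Over all genes WT1 was least like the other WT libraries, by a chi-square per degree of freedom that grows with depth. That value was 12.76 between WT1 and WT2 and 20.3 between WT1 and WT3, against 4.79 between WT2 and WT3. The melanocyte markers matched the label in every library, all 10 above 3 counts, with summed levels of 19840 to 28702 CPM in WT and 20859 to 23173 CPM in Tumor. They summed to 23303 to 38288 CPM in the relapsed lines and 30264 to 31035 CPM in Lyso. Every Tumor library thus lay below every relapsed line and every Lyso library.

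The Tumor libraries held RNA of genes that mark other cell types, beside that of the melanocyte markers. All 10 fibroblast markers were called higher than in WT, and their summed level was 7707 to 10709 CPM in Tumor against 30.0 to 39.5 CPM in WT, 19.9 to 31.2 CPM in the relapsed lines and 15.1 to 18.0 CPM in Lyso. Endothelial markers summed to 54.4 to 59.8 CPM in Tumor, 13.5 to 24.9 CPM in WT, 9.37 to 33.6 CPM in the relapsed lines and 19.5 to 20.6 CPM in Lyso, with 5 of 6 tested called higher. Leukocyte markers summed to 44.5 to 73.2 CPM in Tumor, 42.4 to 47.9 CPM in Lyso, 17.5 to 33.8 CPM in WT and 17.9 to 51.1 CPM in the relapsed lines, where ITF1 lay above every Lyso library. In ITF1 4 of these 17 markers were above 3 counts, against 7 to 10 in Lyso. The sums include Cd68, Csf1r and Zbtb46, which averaged 9.86, 8.86 and 5.02 CPM in cultured WT cells. Cd68 alone reached 34.9 CPM in the relapsed lines. Of 8 leukocyte markers tested, Ptprc, Adgre1 and Lyz2 were called higher in Tumor, and Ptprc and Cd8a were among those called higher in Lyso. Of all genes tested, 8.56% were called higher than WT in Tumor and 2.43% in Lyso. The T cell marker Cd8a had 22, 13 and 28 counts in the Lyso libraries, 0 in all WT libraries and 6 over the Tumor libraries. Cd3e had 5, 7 and 1 counts in Lyso and 0 in WT and in Tumor. Over the Tumor libraries Cd4 had 5 counts, Cd2 3 and Cd3g 2, against 4, 9 and 7 over the Lyso libraries. Which cells made this RNA was not tested, nor was the part of other cell types in the levels of the ligands. In bulk RNA more cells of a type cannot be told apart from more RNA per cell.

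Cd274 showed the largest change from WT among the 8 ligands that could be tested. It rose 27.2-fold in cells given T cell lysosomes and 6.64-fold in cells taken straight from relapsed tumors, whereas the relapsed lines grown in culture overlapped WT. Its level was 4.53, 5.07 and 8.37 CPM in WT1 to WT3, from 8, 12 and 142 counts. It was 186.4, 188.9 and 187.6 CPM in the Lyso libraries, and 24.4, 37.2 and 74.9 CPM in Tumor1, Tumor3 and Tumor4. All 6 libraries lay above every WT library, and the Lyso libraries lay close together while Tumor4 was 3.07 times Tumor1. Set against WT, the log2 fold change was 4.76 ± 0.61 (SE, n = 3 and 3, edgeR quasi-likelihood test, Benjamini-Hochberg adjusted p = 0.000783) in Lyso and 2.73 ± 0.60 (adjusted p = 0.00706) in Tumor. The gene held rank 66 by p among the 14924 genes tested in the Lyso comparison. Against WT3 alone, the deepest WT library, the Tumor change was 2.45 and no longer called (adjusted p = 0.0817).

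The relapsed lines did not share a Cd274 level. ITF1 had 14.97 CPM, Rel 29.7 CPM and ITM 4.73 CPM, so that ITM fell within the WT range and Rel lay above Tumor1. Against WT the log2 fold change was 1.25 ± 0.59 (edgeR adjusted p = 0.471, not called). Without the filter on low counts the same comparison gave 1.27 and an adjusted p of 0.00589. Compared directly, Lyso stood above the relapsed lines by 3.51 ± 0.52 on the log2 scale (edgeR adjusted p = 0.00141, 11.4-fold) and Tumor stood below Lyso (log2 fold change -2.03 ± 0.50, adjusted p = 0.00988). That last call was lost without Tumor3 (-1.90, adjusted p = 0.0513). Tumor and the relapsed lines overlapped, with Rel between Tumor1 and Tumor3, and the difference of 1.48 was not called (edgeR adjusted p = 0.0585). It was called without Rel, at 2.24 (adjusted p = 0.00809), without Tumor1, at 1.76 (adjusted p = 0.0463), without the filter on low counts, at 1.41 (adjusted p = 7.34e-06), and in libraries thinned to equal depth, at 1.90 (adjusted p = 0.0233).

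**Figure D1:**
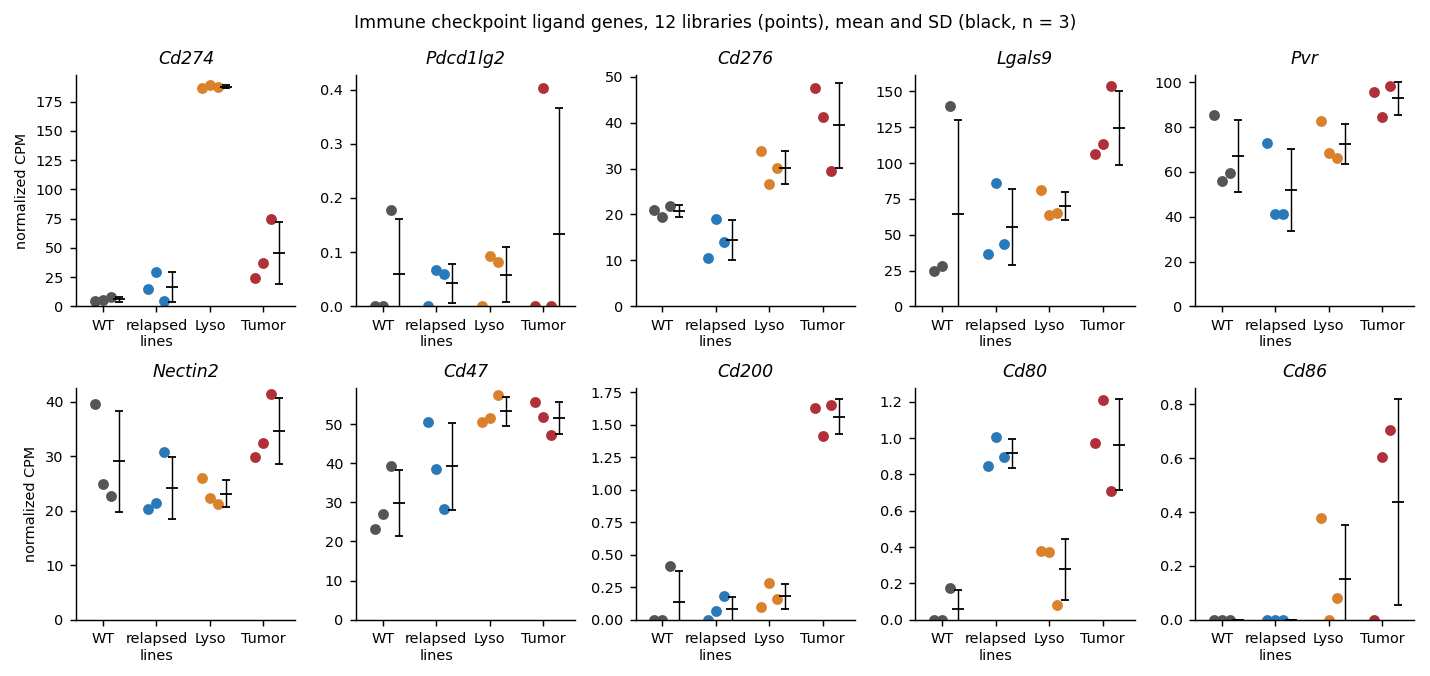
Level of each of the 10 ligand genes in normalized CPM (y axis, from 0, a separate scale per gene) in the 12 libraries by group (points, left to right WT1 to WT3, ITF1, Rel and ITM, Lyso1 to Lyso3, and Tumor1, Tumor3 and Tumor4), with the mean and SD of 3 libraries in black, cut at 0. Cd274 reached 186.4 to 188.9 CPM in Lyso, WT3 lay far above WT1 and WT2 for Lgals9, and Pdcd1lg2, Cd200, Cd80 and Cd86 stayed at or below 1.65 CPM.

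Cd274 lies on chromosome 19 (GRCm38, 29367455 to 29388095, plus strand, ENSMUSG00000016496), with Pdcd1lg2 22823 bases downstream (29410919 to 29471161, plus strand, ENSMUSG00000016498). The neighbor was almost silent in these libraries. Pdcd1lg2 had 0, 0 and 3 counts in WT, 0, 1 and 1 in the relapsed lines, 0, 1 and 1 in Lyso and 0, 2 and 0 in Tumor, and was too low to be tested. The Lyso libraries, where Cd274 had 1977 to 2317 counts, thus held at most 1 count of Pdcd1lg2 each, and their limit for 3 counts was 0.243 to 0.283 CPM. An annotated gene on the opposite strand shares 14.11% of the Cd274 exon bases, and the strand setting of the counting is not given in the sources used here.

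Cd276, which encodes B7-H3, lay on either side of its WT level. It was 20.9, 19.4 and 21.9 CPM in WT, 10.4, 19.0 and 14.0 CPM in the relapsed lines, 33.8, 26.7 and 30.1 CPM in Lyso and 47.5, 41.3 and 29.4 CPM in Tumor. No group overlapped WT: every relapsed line was below it, and every Lyso and Tumor library above. Rel, however, was only just below WT2, whose 19.4 CPM came from 46 counts, a gap within counting error. None of the comparisons with WT was a call, since Tumor against WT had an edgeR adjusted p of 0.0152 with a log2 fold change of 0.91 ± 0.23, under the minimum of 1. The changes in Lyso (0.53 ± 0.23, edgeR adjusted p = 0.230) and in the relapsed lines (-0.53 ± 0.23, adjusted p = 0.419) did not pass on p. Between the groups that lay on either side of WT, Cd276 was called. It was 2.71-fold higher in Tumor than in the relapsed lines (log2 fold change 1.44 ± 0.22, edgeR adjusted p = 0.000523) and 2.08-fold higher in Lyso than in the relapsed lines (1.06 ± 0.21, adjusted p = 0.00984). The latter did not hold without ITF1 (0.87, adjusted p = 0.0250) or without Lyso1 (0.96, adjusted p = 0.0587). Cd276 lies on chromosome 9 (58524298 to 58555437, minus strand, ENSMUSG00000035914), and the opposite-strand gene Gm10657, which shares 11.37% of its exon bases, had 28 counts or fewer in every library.

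The CD28 and CTLA-4 ligands were near the detection limit. Cd80 had 0, 0 and 3 counts in WT, 11, 15 and 15 in ITF1, Rel and ITM, 4, 4 and 1 in Lyso and 3, 6 and 3 in Tumor. In CPM these were 0.845, 1.004 and 0.899 in the relapsed lines and 0.975, 1.21 and 0.706 in Tumor, against 0.177 in WT3. The relapsed lines and Tumor lay above every WT and every Lyso library, but both shallow WT libraries have limits above all of these levels. Tumor against WT was called (log2 fold change 2.71 ± 0.73, edgeR adjusted p = 0.0199). The ratio of pooled counts, 12 against 3, was 6.86 with an exact 95% interval of 1.85 to 37.9 that covers counting error only, and the call was lost in 7 of 15 other settings. The relapsed lines, with 41 counts against 3, had a ratio of 6.46 to WT (exact 95% interval 2.06 to 32.6) that was not called (edgeR adjusted p = 0.173). Cd80 was also called higher in Tumor than in Lyso (1.80 ± 0.57, edgeR adjusted p = 0.0364) and lower in Lyso than in the relapsed lines (-1.72 ± 0.48, adjusted p = 0.0469), and those calls were lost in 9 and 10 of 13 other settings. Cd86 had no counts in WT or in the relapsed lines, 4, 0 and 1 in Lyso and 0, 3 and 3 in Tumor, too few to pass the filter. Without the filter Cd86 was called higher in Tumor than in the relapsed lines (edgeR adjusted p = 0.00888), from 6 counts against 0, and was not called in Tumor against WT (adjusted p = 0.0578). Cd80 (38455561 to 38496335, plus strand, ENSMUSG00000075122) and Cd86 (36603869 to 36666081, minus strand, ENSMUSG00000022901) both lie on chromosome 16.

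Lgals9, which encodes galectin-9, had the highest WT mean per kb of exon through WT3, and no comparison called it in the fit across all libraries. It was 24.3, 28.3 and 140.1 CPM in WT, 36.9, 86.1 and 43.6 CPM in the relapsed lines, 81.2, 63.8 and 64.9 CPM in Lyso and 106.0, 112.9 and 153.9 CPM in Tumor. WT3 was above every library but Tumor4, so WT spanned nearly the whole range of the other groups. On the log2 scale the difference from WT was 0.84 ± 0.52 in Tumor (edgeR adjusted p = 0.290) and 0.01 ± 0.51 in Lyso (adjusted p = 1). A single library set these values: without WT3 the Tumor change was 2.23 and called (adjusted p = 0.00274), and with WT3 as the only WT library it was -0.17. Tumor against the relapsed lines, which does not involve WT, gave 1.16 ± 0.51 with every Tumor library above every relapsed line (edgeR adjusted p = 0.134), and was called without the filter (1.09, adjusted p = 0.000648) and with only those groups fitted (1.15, adjusted p = 0.0433). The levels of Irf9 and Gbp2 moved with that of Lgals9 in WT3, and their part in it was not tested. Lgals9 lies on chromosome 11 (78962974 to 78984946, minus strand, ENSMUSG00000001123).

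The ligands of TIGIT and DNAM-1 were not called in any comparison of the fit across all libraries. Pvr was 85.5, 56.2 and 59.7 CPM in WT, 73.0, 41.4 and 41.4 CPM in the relapsed lines, 82.7, 68.7 and 66.0 CPM in Lyso and 95.6, 84.5 and 98.4 CPM in Tumor. The largest difference was Tumor against the relapsed lines, where the groups did not overlap (log2 fold change 0.84 ± 0.22, edgeR adjusted p = 0.0168) but the change was under the minimum of 1. It was called without ITF1, at 1.16 (adjusted p = 0.000547). Against WT, Pvr differed by 0.48 ± 0.22 in Tumor (edgeR adjusted p = 0.158) and by 0.13 ± 0.22 in Lyso (adjusted p = 0.823), with overlapping groups. Nectin2 was 39.6, 24.9 and 22.6 CPM in WT, 20.3, 21.4 and 30.8 CPM in the relapsed lines, 25.9, 22.3 and 21.3 CPM in Lyso and 29.9, 32.4 and 41.4 CPM in Tumor. WT1 was above all but Tumor4, and no comparison called Nectin2, with log2 fold changes against WT of -0.28 ± 0.23 in Lyso (edgeR adjusted p = 0.577) and 0.30 ± 0.23 in Tumor (adjusted p = 0.406). Both genes lie on the minus strand of chromosome 7, Nectin2 at 19716644 to 19750483 (ENSMUSG00000062300) and Pvr at 19903578 to 19921160 (ENSMUSG00000040511), 153094 bases apart. Gm20512, on the opposite strand of Nectin2, shares 3.86% of its exon bases and was at 31.5 to 53.2 CPM in the 12 libraries.

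Cd47, the SIRPα ligand, lay higher in Lyso and in Tumor than in WT by less than the minimum for a call. It was 23.2, 27.0 and 39.3 CPM in WT, 50.7, 38.6 and 28.4 CPM in the relapsed lines, 50.6, 51.7 and 57.5 CPM in Lyso and 55.6, 51.7 and 47.3 CPM in Tumor. All Lyso and Tumor libraries exceeded every WT library, and the relapsed lines overlapped both. The log2 fold change was 0.77 ± 0.22 in Lyso (edgeR adjusted p = 0.0619) and 0.72 ± 0.22 in Tumor (adjusted p = 0.0373). Without WT3, the highest WT library, both passed, at 1.08 in Lyso (adjusted p = 0.0310) and 1.03 in Tumor (adjusted p = 0.0162). The gene lies on chromosome 16 (49800533 to 49915010, plus strand, ENSMUSG00000055447), and its enzyme partner Qpctl, which modifies the SIRPα binding site of CD47, was 11.4 to 17.5 CPM in WT and 15.6 to 18.3 CPM in Tumor.

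Cd200 was detected above 3 counts in all Tumor libraries and in WT3 only outside them. It had 5, 7 and 7 counts in Tumor, 0, 0 and 7 in WT, 0, 1 and 3 in the relapsed lines and 1, 3 and 2 in Lyso. Its Tumor level, 1.63, 1.41 and 1.65 CPM, was above that of WT3 at 0.413 CPM, while a count of 0 in WT1 still allows more than any of these values. Cd200 was called higher in Tumor than in WT (log2 fold change 2.29 ± 0.68, edgeR adjusted p = 0.0337), a call lost in 9 of 15 other settings. The Tumor level was also called above Lyso (3.03, edgeR adjusted p = 0.00463) and above the relapsed lines (3.94, adjusted p = 0.00129). Pooled counts gave ratios of 4.66 to WT (exact 95% interval 1.87 to 13.1), 8.68 to Lyso (3.33 to 26.6) and 17.3 to the relapsed lines (5.73 to 69.7). These intervals cover counting error only, not the spread between libraries. Fibroblast and endothelial markers rose in the same libraries, and their part in the Cd200 level was not tested. Cd200 lies on chromosome 16 (45382135 to 45409053, minus strand, ENSMUSG00000022661).

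**Figure D2:**
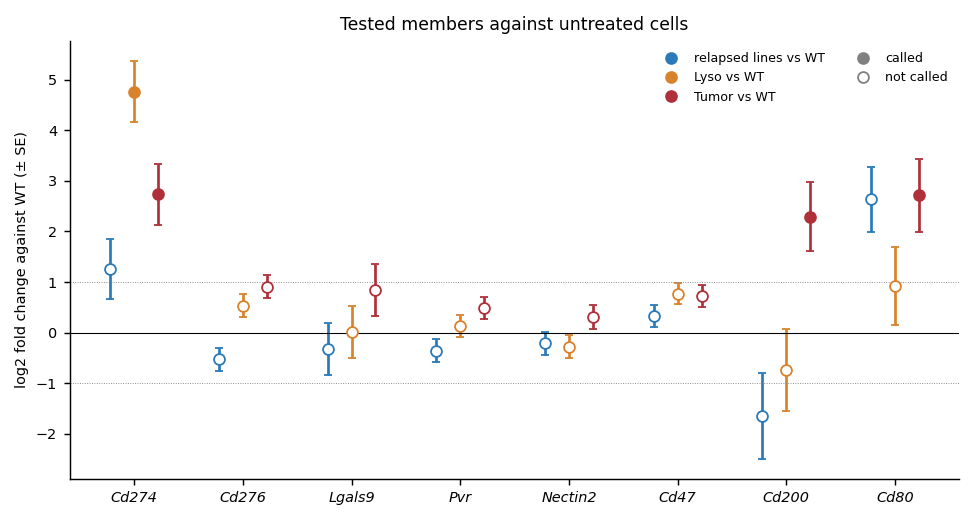
Log2 fold change against WT (y axis, ± SE, 3 libraries per group) of the 8 ligand genes tested, for the relapsed lines, Lyso and Tumor. Filled points passed adjusted p under 0.05 with a change over 1 (dotted lines), open points did not. The passing points are Cd274 in Lyso at 4.76 and Cd274, Cd200 and Cd80 in Tumor at 2.73, 2.29 and 2.71.

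Counted together, 8 of the 10 members passed the filter on low counts, and Pdcd1lg2 and Cd86 did not. A gene was called when its adjusted p was under 0.05 and its log2 fold change over 1 in size. In Lyso against WT 1 member was called higher and 0 lower, where 2.43% of all genes tested were called higher and 0.576% lower. In Tumor against WT 3 were called higher and 0 lower, beside 8.56% and 2.2% of all genes, and 2 of these 3 had under 10 counts in every Tumor library. In the relapsed lines against WT edgeR called 0 members, 2 had an unadjusted p under 0.05, DESeq2 also called 0, and 0.0134% of all genes were called higher and 0.0268% lower. Tumor against Lyso gave 2 members higher and 1 lower (8.78% and 4.14% of all genes), Tumor against the relapsed lines 2 higher and 0 lower (8.36% and 2.31%), and Lyso against the relapsed lines 2 higher and 1 lower (3.21% and 1.04%). These comparisons share their groups, so they are not independent of each other. The median log2 fold change of the 8 tested members relative to WT was 0.33 in Lyso, 0.87 in Tumor and -0.27 in the relapsed lines, with medians over all genes tested between -0.005 and 0.008.

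Scaled by exon length, Cd274 went from last of the commonly detected ligands in WT to first in Lyso. In WT the mean levels per kb were 30.1 ± 30.7 CPM for Lgals9 (SD, n = 3), 10.96 ± 2.61 for Pvr, 8.32 ± 2.64 for Nectin2, 5.68 ± 0.35 for Cd276, 4.76 ± 1.34 for Cd47 and 1.65 ± 0.57 for Cd274, which was last of the 6 members detected in every library. Lgals9 led WT because of WT3: it was 11.4, 13.2 and 65.5 CPM per kb in WT1, WT2 and WT3, where Pvr was 13.96, 9.17 and 9.76. Neighbors from Lgals9 down to Nectin2 and the pair of Cd276 and Cd47 lay within their spread. In Lyso Cd274 was first at 51.8 ± 0.35 CPM per kb, ahead of Lgals9 at 32.7 ± 4.56 and Pvr at 11.8 ± 1.46. In Tumor Lgals9 led at 58.2 ± 12.1 CPM per kb, followed by Pvr at 15.2 ± 1.20 and Cd274 at 12.6 ± 7.24, whose spread covered Pvr and the 3 members after it. Cd274 made up 2.39% to 3.45% of the summed length-scaled level of the 10 members in the WT libraries, 40.2% to 45.2% in Lyso and 6.53% to 15.1% in Tumor. With the longest transcript in place of all exon bases, Pvr in Lyso was 24.9 CPM per kb and Lgals9 44.1, and the places of Cd274, Lgals9 and Pvr there did not change.

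**Figure D3:**
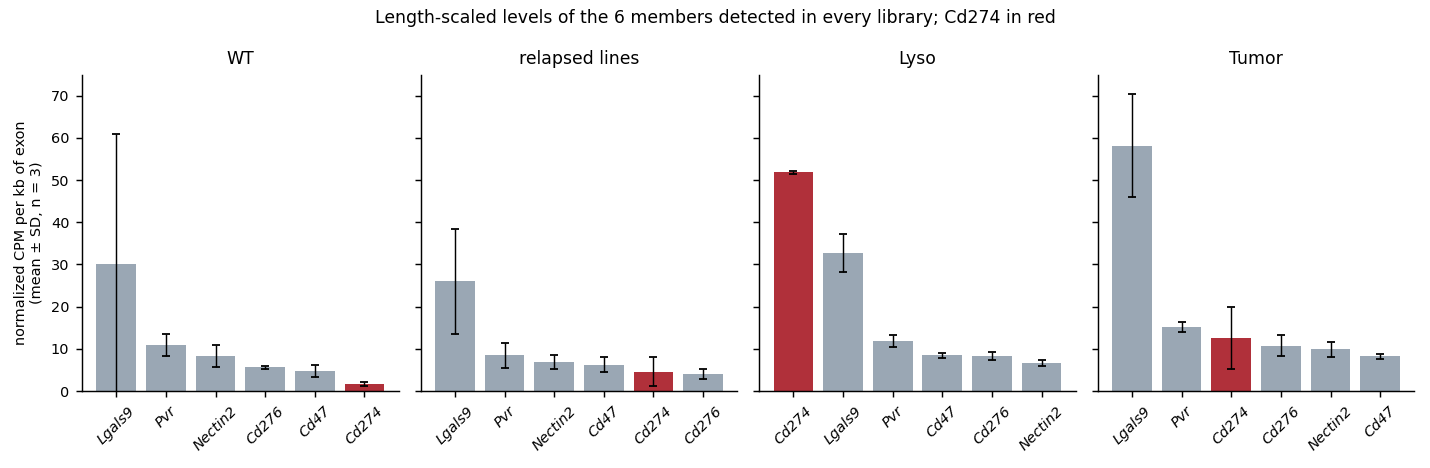
Mean level in normalized CPM per kb of exon (y axis, bars from 0, error bars SD of 3 libraries, cut at 0) of the 6 ligand genes detected in every library, sorted within each group, with Cd274 in red. Cd274 is last in WT at 1.65 and first in Lyso at 51.8.

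Genes of the interferon-γ pathway rose in the same libraries as Cd274. Of 19 listed genes, all tested, 12 were called higher in Lyso and 8 in Tumor against WT, and 0 were called lower in either. Over all genes tested the share called higher was 2.43% in Lyso and 8.56% in Tumor. The list medians were 3.35 in Lyso and 1.36 in Tumor. In the relapsed lines edgeR called 0 of the 19 (median 0.07), with 2 at an unadjusted p under 0.05, while the fit without a filter called 1. The genes with the smallest p in Lyso were Stat3 (log2 fold change 3.35 ± 0.18, edgeR adjusted p = 2.61e-06), Socs3 (3.76 ± 0.27, 2.5e-05), Irf1 (5.89 ± 0.57, 0.000193) and Socs1 (4.56 ± 0.46, 0.000212). STAT3 is the transcription factor of IL-6 family cytokines, SOCS3 its feedback inhibitor, SOCS1 the feedback inhibitor of interferon receptors, and IRF1 the factor that carries the interferon-γ signal to many promoters. In Tumor Stat3 (2.40 ± 0.18, edgeR adjusted p = 1.72e-06) and Socs3 (3.62 ± 0.27, 2.05e-06) led again, with the T cell attracting chemokines Cxcl9 and Cxcl10. Cxcl10 rose from 13.0, 8.44 and 32.0 CPM in WT to 101.1, 99.4 and 209.96 CPM in Tumor. Cxcl9 had 1 count over the WT libraries and 373 over the Tumor libraries, a ratio of 640 with an exact 95% interval of 114 to 25346. That interval covers counting error only.

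Irf1 and Cd274 took the same order of groups, with Lyso above Tumor above WT. Irf1 was 4.53, 8.02 and 17.9 CPM in WT, 657.8, 745.8 and 758.4 CPM in Lyso and 35.4, 64.6 and 173.2 CPM in Tumor. Directly compared, 9 of the 19 genes were called lower in Tumor than in Lyso, as Cd274 was, and 1, Cxcl9, was called higher. Over all genes tested 4.14% were called lower and 8.78% higher. Within the Tumor group Cd274 was lowest in Tumor1 and highest in Tumor4, an order that 12 of the 19 interferon-γ genes, 2 of the 7 other tested members (Lgals9 and Nectin2) and 20.5% of all genes tested shared. Among the relapsed lines, where Cd274 was highest in Rel and lowest in ITM, 10 of the 19 genes, 0 of the 7 other members and 17.3% of all genes had the same order.

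**Figure D4:**
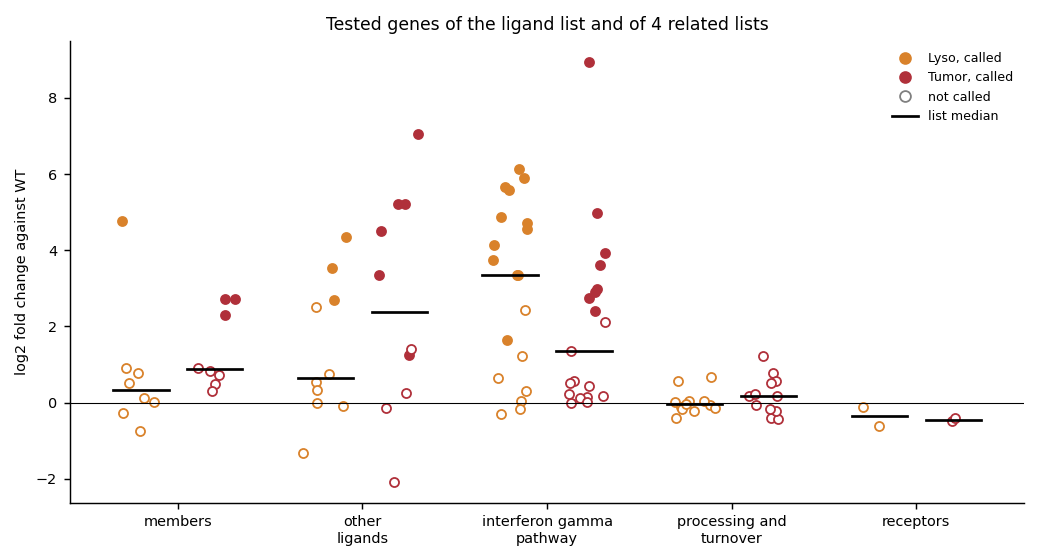
Log2 fold change against WT (y axis) of each tested gene in the ligand list and 4 related lists, for Lyso (orange) and Tumor (red), filled where the gene was called, with list medians as black bars. In the interferon-γ pathway 12 genes in Lyso and 8 in Tumor are filled, and in the processing and receptor lists none is.

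The genes whose levels followed Cd274 most closely over the 12 libraries, by Pearson correlation of log2 CPM, were Ifi47 (0.980), Tap1 (0.978), Ccrl2 (0.977), Nlrc5 (0.975) and Iigp1 (0.974). The points fall into the study's groups and share their libraries and depth, so the values describe likeness in these data only. Ifi47 and Iigp1 encode interferon-inducible GTPases, TAP1 carries peptides for MHC class I, NLRC5 is the transactivator of MHC class I genes, and Ccrl2 encodes a chemokine receptor-like protein. Their mean levels in WT, Lyso and Tumor were 2.39, 174.4 and 51.8 CPM for Nlrc5 and 8.61, 279.9 and 84.9 CPM for Tap1. Cd276 was most like Lmo1 (0.940), Lsp1 (0.930), Pdpn (0.929), Sh3bp5 (0.928) and Osmr (0.927), none of which was among the genes nearest Cd274. Osmr, the oncostatin M receptor, was 6.21 CPM on average in WT, 4.49 in the relapsed lines, 16.9 in Lyso and 25.2 in Tumor, and Pdpn, which encodes podoplanin, 19.1, 12.9, 49.4 and 49.7 CPM.

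**Figure D5:**
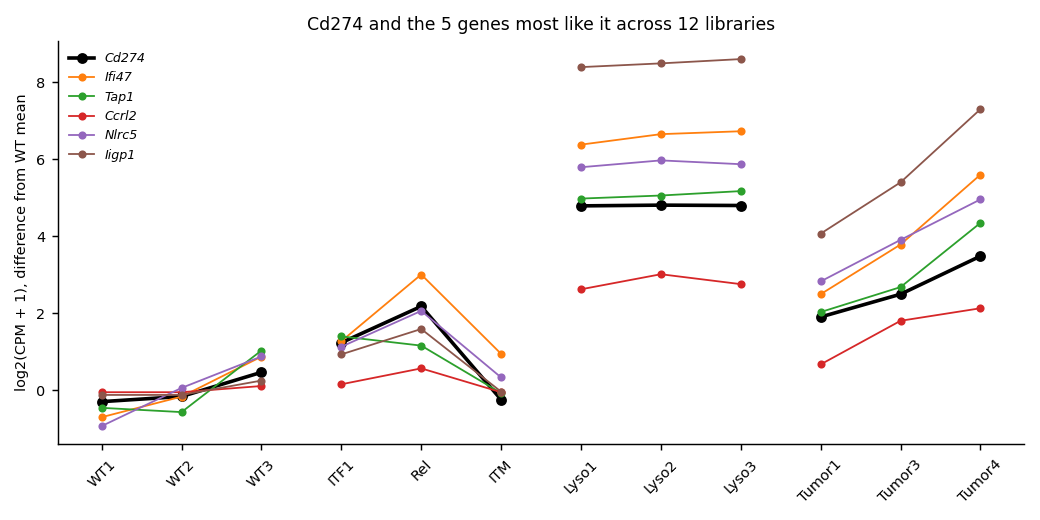
Log2(CPM + 1) of Cd274 (black) and the 5 genes most like it in pattern, each as the difference from its own WT mean (y axis), in the 12 libraries (x axis). Lines only join the libraries of a group, which have no order. Cd274 and the other genes are high and even in Lyso, spread over the Tumor libraries with Tumor4 highest, and highest in Rel among the relapsed lines except for Tap1.

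Of 21 other checkpoint ligand genes listed, 10 passed the filter. Against WT 3 were called higher in Lyso and 6 in Tumor, with 0 lower in either and list medians of 0.65 and 2.38. The share of all genes tested that was called higher was 2.43% in Lyso and 8.56% in Tumor. Icosl, which encodes the ligand of ICOS, rose in both, from 0.566, 0 and 0.472 CPM in WT to 3.11, 2.14 and 2.996 CPM in Lyso (log2 fold change 2.71 ± 0.43, edgeR adjusted p = 0.00342) and 4.88, 4.43 and 3.77 CPM in Tumor (3.36 ± 0.44, 0.000238). H2-T23, the mouse Qa-1 molecule that binds the inhibitory receptor NKG2A, rose in both as well. It was 0.566, 0.422 and 1.12 CPM in WT, 21.2, 18.6 and 17.9 CPM in Lyso and 9.43, 18.1 and 37.0 CPM in Tumor (edgeR adjusted p = 0.00538 and 0.0013). Tnfrsf14, which encodes the BTLA ligand HVEM, was called in Lyso (3.53 ± 0.57, edgeR adjusted p = 0.00357) and at 1.41 ± 0.71 in Tumor was not (0.194). Direct comparison called it lower in Tumor than in Lyso (-2.12 ± 0.50, edgeR adjusted p = 0.00793). Vsir, which encodes VISTA, and Entpd1, which encodes the ectonucleotidase CD39, each had 1 count over the WT libraries and 28 over the Tumor libraries. The ratio was 48.0 with an exact 95% interval of 7.94 to 1965 that covers counting error only. Both VISTA and CD39 are known from leukocytes, CD39 from endothelium too, and the part of those cells in the Tumor values was not tested. In the relapsed lines edgeR called 0 of the 10, with 1 at an unadjusted p under 0.05 and a list median of 0.33.

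In the fit across all libraries, no gene of a list that acts on the ligand proteins was called. The list holds regulators of PD-L1 stability and glycosylation, such as Cmtm6 and Cmtm4, which shield PD-L1 from degradation, Spop and Cul3 of the ubiquitin ligase that targets it, and Stt3a and B3gnt3, which glycosylate it. All 12 were tested and edgeR called 0 in any of the 6 comparisons. By edgeR 2, 5 and 1 had an unadjusted p under 0.05 in Lyso, Tumor and the relapsed lines against WT. Over all genes tested, 2.43% were called higher and 0.576% lower than WT in Lyso, and 8.56% and 2.2% in Tumor. At such shares a list of 12 may well hold no call, so 0 calls do not set this list apart. Cmtm6 was 26.6, 30.0 and 38.6 CPM in WT, 25.8, 38.3 and 34.3 CPM in Lyso and 33.8, 33.8 and 26.8 CPM in Tumor. The receptors of the members were mostly too low to be tested, as 2 of 10 passed the filter. Sirpa, the CD47 receptor, was 208.2 to 374.7 CPM in WT, 257.1 to 274.6 CPM in Lyso and 173.9 to 255.5 CPM in Tumor, and Havcr2, which encodes TIM-3, was 2.82 to 9.60 CPM over all libraries. Neither was called in any comparison. Pdcd1, which encodes PD-1, was below the filter, so the receptor of the most changed ligand could not be compared.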

How the data were processed

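RNA-seq of 12 B16F10 libraries in 4 groups of 3 was taken from the raw gene counts deposited by the authors, who trimmed reads with fastp 0.19.6 and aligned them with STAR 2.7.1a to GRCm38. The strand setting and annotation release are not given in the sources used here. The submitters' notes also name DESeq2 1.24.0. Reads on genes made up 36.17% to 39.36% of each library, and the rows for unmapped, multimapping and unassigned reads (43.53% to 44.77% without a feature) stayed out of library sizes and tests. Groups came from the labels. Genes passing edgeR's filterByExpr (14924) were fitted over all libraries with edgeR 4.0.16 (R 4.3.3, TMM, quasi-likelihood test, group only), and called at Benjamini-Hochberg adjusted p under 0.05 and log2 fold change over 1 in size. Fits were tested on simulated data. Correlations used a prior count of 2. Exon lengths and overlaps came from GENCODE M21. Text names all 10 members, up to 4 called genes of smallest p per other list and comparison, defining markers and the 5 genes most like Cd274 and Cd276. Members and lists were chosen with earlier results of these data known. Alternatives were DESeq2 1.42.0, other scalings and filters, a change tested against the minimum (glmTreat), libraries thinned to 1667398 counts, WT subsets and leaving out each library. The closest pair of libraries, Lyso2 and Lyso3, differed by more than counting noise. Values of some genes in the lists are not reported here.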

Additional observations from a re-analysis of the deposited data

How the results depend on the processing

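Over all alternatives Cd274 remained called in Lyso against WT (log2 fold change 4.48 to 5.28 in 17 settings, highest adjusted p 0.0365) and was lost in 1 of 17 in Tumor against WT (2.18 to 3.24). WT1 had 8 counts of it, so the alternative that asks each library for 10 counts left it untested.

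The number of members called moved with the settings. In Lyso against WT (1 in the edgeR fit) it was 0 with a minimum of 10 counts and 2 in libraries thinned to equal depth or with WT1 and WT2 as the only WT libraries, and 1 to 2 on leaving out each library. In Tumor against WT (3) it was 1 by DESeq2, 0 with the minimum of 10, 1 when only the compared groups were fitted, 5 by adjusted p alone, 1 by glmTreat, 0 with WT3 as the only WT library, and 1 to 4 on leaving out each library (1 without Tumor3). In the relapsed lines against WT (0) it was 1 without a filter. In Tumor against Lyso (3) it was 1 with the minimum of 10, by glmTreat or after thinning, and 1 to 3 on leaving out each library (1 without Tumor3). In Tumor against the relapsed lines (2) it was 5 without a filter, 1 with the minimum of 10 and 1 by glmTreat, and 2 to 3 on leaving out each library. In Lyso against the relapsed lines (3) it was 1 by glmTreat or after thinning, and 1 to 2 on leaving out each library (1 without ITF1 or Lyso1). The cause was not tested.

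Direction turned only for members that were not called. For Lgals9 in Lyso against WT the log2 fold change was -0.0922 by library size alone (which moved the median of all genes to -0.10), -0.0136 without a filter, -0.0104 with the compared groups only, -1.002 with WT3 alone, and -0.35 to 1.40 on leaving out each library. With WT3 alone it was -0.17 for Lgals9 in Tumor, 0.0320 for Nectin2 in Lyso, 0.10 for Nectin2 and -0.0069 for Cd47 in the relapsed lines. With WT1 and WT2 alone it was 3.73 for Cd200 in Lyso, and 1.07 for Lgals9 and 2.83 for Cd200 in the relapsed lines. Thinning gave 0.0031 for Cd47 in Tumor against Lyso and 0.0713 for Nectin2 in Lyso against the relapsed lines. On leaving out each library the values ran from -1.15 to 3.73 for Cd200 in Lyso, -0.80 to 1.07 for Lgals9, -0.42 to 0.0409 for Nectin2 and -2.70 to 2.83 for Cd200 in the relapsed lines, -0.11 to 0.0090 for Cd47 in Tumor against Lyso, -0.15 to 0.27 for Cd80 in Tumor against the relapsed lines, and -0.17 to 0.15 for Nectin2 in Lyso against the relapsed lines.

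In the interferon-γ list the calls ranged over 6 to 14 genes (12) in Lyso and 3 to 11 (8) in Tumor, lowest with the minimum of 10 counts. The list of ligand processing and turnover (0) stayed at 0 in 12 of 18 settings in Tumor against WT and reached 3 by adjusted p alone. Its highest count was 2 in Tumor against Lyso, 1 in Tumor against the relapsed lines and 1 in the relapsed lines against WT. DESeq2 called 44 genes higher and 52 lower in the relapsed lines against WT, where edgeR called 2 and 4. Replicate numbers did not pair the libraries (correlations of same-numbered deviations -0.008 to 0.065), and with the number as a replicate block edgeR called 433 genes higher and 101 lower in Lyso against WT and 1187 and 234 in Tumor against WT. The blocked fit called 1 member in Lyso and 2 in Tumor, Cd274 and Cd276, and left Cd200 and Cd80 out. No other library in the blocked fit bore the number of Tumor4, so Tumor4 did not inform its Tumor change. Cd200 and Cd80 had at most 7 counts in any Tumor library, and the part of depth in their lost calls was not tested.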
